A study of Mus musculus with 4 samples.

Results

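The kinesins are the microtubule motors whose genes carry the names Kif followed by a digit. On the array, 36 such genes were represented by 77 probes, out of 19893 genes with a symbol, and each gene was read from its brightest probe. They were compared between wild type primary fibroblasts from C57BL/6 mouse embryos given a negative control siRNA and the same kind of cells with siRNA against Xpo5, the gene of Exportin-5, which carries microRNA precursors out of the nucleus. Each group held 2 samples, from 2 independent experiments, and every sample of both groups was treated alike apart from the siRNA. The siRNA was delivered by lipid transfection at 60 nM, and 12 h later the serum was lowered to 0.2%. After 48 h of this starvation the cells were transfected again and refed with 20% serum, and RNA was taken 24 h later. No source used here says whether the experiments came from different embryos, so that each p value measures the spread between these samples.

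Kinesins turn the energy of ATP into movement along microtubules. One set works in dividing cells, where its members push spindle poles apart, move and align chromosomes, shorten microtubules and build the midzone at which the cell is pinched off. Its genes are known to be transcribed from S phase to mitosis and to be silent in resting cells. Another set carries vesicles, mitochondria, endosomes and ciliary proteins through the cytoplasm in dividing and resting cells alike, and several of its members are best known from neurons. Fibroblasts starved of serum come to rest, and refeeding lets them divide again. Of the 36 genes, 11 were assigned to mitosis, 15 to transport and 10 to cilia, signalling or other roles.

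The promoters of these genes are shown first, because they hold letters that bear on transcription in the cell cycle. The CHR (cell cycle genes homology region) is the element bound by the MuvB complex, which silences mitotic genes in resting cells and activates them later in the cycle, and it often lies near a CCAAT box, the site of NF-Y. RefSeq promoters of build GRCm38.p6, from 250 bases before to 50 bases after each start, were matched for 31 of the 36 genes, all but Kif5a, Kif5b, Kif13b, Kif20a and Kif21b. They were searched on both strands for the CHR as TTTGAA or TTCGAA, for the CCAAT box as CCAAT, and for E2F sites as TTTCCCGC, TTTGGCGC, TTTCGCGC or TTTGCCGC, and no match of one kind overlapped one of another. A CHR match was present in 9 of 10 mitotic kinesin genes and in 1 of 11 transport kinesin genes, at 1 of the starts of Kif1a, against 21.7% of all 27025 genes with a promoter in the table, and in 3 of the 10 other kinesin genes. A CCAAT box lay in 6 of the 10 and 3 of the 11, and 5 of the other 10, against 41.1% of all genes. Both lay in 1 promoter for 6 mitotic, 0 transport and 3 other kinesin genes, against 8.61%. E2F words were found for Kif15 and Kif18a, the latter without a CHR match, and for 0 transport and 0 other kinesin genes, against 2.60% of all genes. Among all 32851 promoters, 19.2% held the CHR, 37.4% the CCAAT box and 2.26% an E2F word. Within the nearer window, from 120 bases before to 30 after the start, the CHR was matched in 8 of 10 mitotic, 1 of 13 transport and 3 of 12 other kinesin promoters, against 9.07% of all promoters. The median GC content was 60.2% for the mitotic, 69.3% for the transport and 52.7% for all promoters, and its part in these counts was not tested. These matches are letters in a window and not shown sites.

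The sequences below run 5′ to 3′ through that nearer window, with the matched words in capitals on the strand of the gene, so that TTCAAA is the CHR and ATTGG the CCAAT box read from the opposite strand. Kif14 and Kif2c, with the CHR at -228 and -103 bases from the start, and Kif18a, with no CHR, are not among these sequences. Kif11, Kif15, Kif23 and Kif4 are mitotic members with the CHR nearer to the start. Kif22 is a mitotic member with the layout of Kif11 whose transcript was not lower in both experiments. The transport members shown are Kif3a and Kif1c. In the order given below, the sequences lie at chr19:37376262-37376411 (plus strand), chr9:122950961-122951110 (plus strand), chr9:61946770-61946919 (minus strand), chrX:100625945-100626094 (plus strand), chr7:127042391-127042540 (minus strand), chr11:53567249-53567398 (plus strand) and chr11:70700428-70700577 (plus strand).
Kif11: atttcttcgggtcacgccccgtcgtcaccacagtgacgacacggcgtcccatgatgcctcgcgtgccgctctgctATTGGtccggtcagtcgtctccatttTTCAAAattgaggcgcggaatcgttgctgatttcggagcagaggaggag
Kif15: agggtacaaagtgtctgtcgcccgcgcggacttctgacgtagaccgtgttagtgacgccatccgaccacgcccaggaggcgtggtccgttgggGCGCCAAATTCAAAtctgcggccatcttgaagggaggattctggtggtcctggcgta
Kif23: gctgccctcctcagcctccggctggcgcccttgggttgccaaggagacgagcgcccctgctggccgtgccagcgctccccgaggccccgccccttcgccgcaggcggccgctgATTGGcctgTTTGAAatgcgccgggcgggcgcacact
Kif4: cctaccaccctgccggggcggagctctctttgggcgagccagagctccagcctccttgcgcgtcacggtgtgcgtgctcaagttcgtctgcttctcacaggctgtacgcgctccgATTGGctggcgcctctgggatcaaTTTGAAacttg
Kif22: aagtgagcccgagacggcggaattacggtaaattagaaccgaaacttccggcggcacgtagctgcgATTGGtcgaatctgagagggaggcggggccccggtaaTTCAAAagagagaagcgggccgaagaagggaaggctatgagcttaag
Kif3a: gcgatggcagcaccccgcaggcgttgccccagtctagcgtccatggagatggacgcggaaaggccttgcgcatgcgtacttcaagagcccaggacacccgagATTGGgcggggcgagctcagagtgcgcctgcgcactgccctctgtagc
Kif1c: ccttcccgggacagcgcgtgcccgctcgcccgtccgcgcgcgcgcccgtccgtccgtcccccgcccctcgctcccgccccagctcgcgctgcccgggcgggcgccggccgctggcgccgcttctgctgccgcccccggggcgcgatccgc
In Kif11 and Kif22 the CHR stood 19 and 17 bases before the start, with a CCAAT box further upstream, and in Kif15 it directly followed an E2F word. In Kif23 and Kif4 it lay 3 and 20 bases into the transcript, after a CCAAT box. Kif3a held a CCAAT box alone and Kif1c none of these words.

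**Figure D1:**
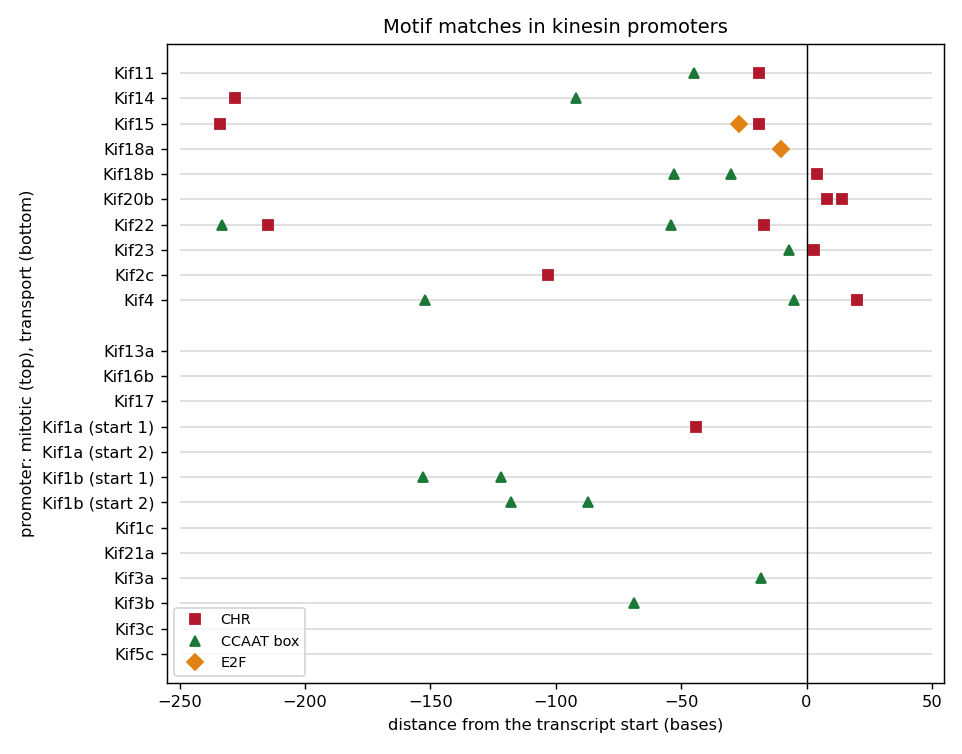
Positions of CHR (squares), CCAAT box (triangles) and E2F (diamonds) matches in the promoters of 10 mitotic and 11 transport kinesin genes, with the distance from the transcript start in bases on the horizontal axis and 1 line per promoter. Squares appear for 9 of the 10 mitotic genes and for 1 of the 11 transport genes.

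Each sample was read on a 1-colour array of its own, on which 62.4% to 65.0% of spots stood clear of the background. With 4 arrays, their number sets the precision of every value. Signals are log2 values above or below each array's 75th percentile, given for replicate 1 and then replicate 2 (experiments 1 and 2), and differences are Xpo5 siRNA minus control siRNA on the log2 scale. Xpo5 itself read 1.31 and 1.26 in the controls, and -1.95 and -1.93 after Xpo5 siRNA, and so fell by 3.23 ± 0.12 (SE, n = 2 arrays per group), to 10.7% of the control signal (limma adjusted p = 0.0107). Its adjusted p was 0.0630 without replicate 1 of Xpo5 siRNA, 0.168 with dim probes kept and 0.148 when its probes were averaged. Over all 13924 genes tested, limma called 3 at an adjusted p under 0.05 (0.0215%), and 608 (4.37%) when the experiment entered the fit as a block. All of the 14 fibroblast markers were above background on all 4 arrays, with a median difference of 0.038, so that the defining markers of the labelled cell type were present. Of 12 macrophage markers, 12 were higher with Xpo5 siRNA, against 51.2% of all genes, by a median of 0.65. That median was 1.14 between the arrays of slide 1 and 0.17 between those of slide 2. The summed signal of the 12 went from 57.4 and 40.0 to 81.3 and 67.3 times the 75th percentile. With the block, 5 of the 12 rose in limma, against 2.99% of all genes in that direction, and 0 passed without it. Of 8 endothelial markers 4 were tested, with a median of 0.68, of which Kdr, Vwf and Tek read 1.19, 0.73 and 0.63 and Emcn -0.34. Kdr rose with the block (limma adjusted p = 0.0436, and 0.144 without it), while Pecam1, Cdh5, Tie1 and Cldn5 were above background on 0 arrays. The summed signal of the 4 tested was 0.86 and 0.91 in the controls, and 1.07 and 1.04 after Xpo5 siRNA. The median was -0.31 over the 4 of 7 epithelial markers tested and 0.14 over the 3 of 8 muscle markers tested. The part of any of these markers in the values that follow was not tested.

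The medians of the mitotic and the transport kinesins lay on opposite sides of 0. With Xpo5 siRNA, 11 of 11 mitotic kinesins tested had a lower mean signal, against 48.8% of all genes, while 12 of the 14 transport kinesins tested had a higher one, against 51.2% of all genes. The median difference was -0.38 for the mitotic members, and 0.31 for the transport members, against 0.0065 over all genes. The 2 medians were therefore 0.69 apart. The gap was 0.64 in experiment 1, with medians of -0.32 and 0.32, and 0.64 in experiment 2, with medians of -0.40 and 0.24. Within slide 1 it was 0.46 and within slide 2 0.69, where each slide paired arrays of different experiments. For the members that the choice of genes names, Kif11, Kif20a, Kif23 and Kif2c against Kif1b, Kif3a and Kif5b, the gap was 0.41. The named transport members read 0.32, -0.059 and 0.011, so that their median of 0.011 was close to that of all genes. With single arrays left out, the median of the 14 transport members was lowest without replicate 1 of control siRNA, at 0.16. The gap was described and not tested, because the members were chosen with results of these arrays known. Each of the 31 kinesins tested was well above background on all 4 arrays with its brightest probe. None of them passed limma over all genes without the block, against 0.0215% of all genes. There 9 had an unadjusted p under 0.05, 7 with a lower and 2 with a higher signal, against 5.8% and 8.88% of all genes. With the block 1 of the 31, Kif1a, passed, against 4.37% of all genes. In cultures such as these, a smaller share of dividing cells and less of a transcript in each dividing cell cannot be told apart.

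**Figure D2:**
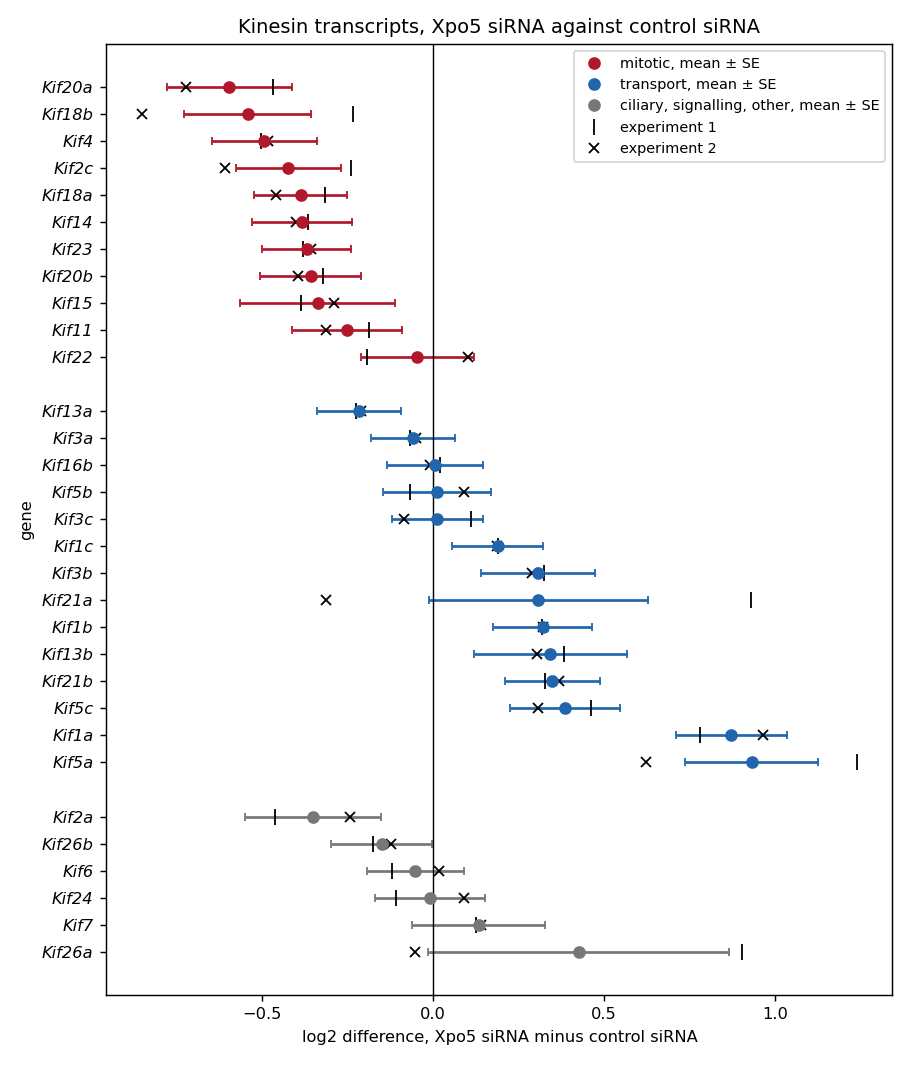
Difference in log2 signal, Xpo5 siRNA minus control siRNA (horizontal axis), for the 31 kinesin genes tested, with the mean and its SE as a coloured point and bar and the difference within experiment 1 and experiment 2 as a black line and cross. The 11 mitotic genes have means between -0.60 and -0.046, and the 14 transport genes between -0.22 and 0.93.

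Among the mitotic kinesins, 10 of 11 were lower in both experiments, against 35.2% of all genes, and for 9 of 11 the groups did not overlap, against 22.9% of all genes in that direction. An unadjusted p under 0.05 was reached by 7 of 11 in limma, against 5.8% of all genes, and by 9 with the block, against 12.3%. No member passed after adjustment over all genes, where 1.38% of all genes passed in that direction with the block. The largest difference of the list was that of Kif20a, which is needed to move the chromosomal passenger complex to the midzone and to complete cytokinesis. Its log2 signal was 4.99 and 4.85 in the controls, and 4.53 and 4.12 after Xpo5 siRNA. Both Xpo5 siRNA arrays lay below both controls, and the difference was -0.60 ± 0.18 (SE, n = 2 arrays per group, adjusted p = 0.255 in limma and 0.0636 with the block), or 66.2% of the control signal. Kif4, a motor that binds chromosomes and sets the length of midzone microtubules together with Prc1, read 2.38 and 2.17 in the controls, and 1.88 and 1.69 after Xpo5 siRNA, on a probe at chrX:97922126-97922185 of the mouse mm9 build. The groups did not overlap, and the differences within the experiments, -0.50 and -0.48, were close to each other. Kif23, the motor subunit of centralspindlin, which bundles the midzone and recruits the cytokinesis machinery, read 2.37 and 2.27 in the controls, and 1.99 and 1.91 after Xpo5 siRNA (chr9:61767733-61768853), again without overlap. Its difference was -0.37 ± 0.13 (SE, n = 2 arrays per group, adjusted p = 0.306 in limma and 0.102 with the block).

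The 5 motors described next act on spindle poles, chromosomes and microtubule ends, and their differences ran from -0.54 to -0.25 on their brightest probes. Kif11, which slides antiparallel microtubules and so separates the spindle poles, read -0.045 and -0.21 in the controls, and -0.23 and -0.52 after Xpo5 siRNA (chr19:37495755-37495814). The groups did not overlap, although their nearest arrays lay close together, and the difference was -0.25 ± 0.16 (SE). Kif15, which can take over from Kif11, differed by -0.34 ± 0.23, and its groups overlapped, with control arrays that lay 0.47 apart. Kif2c, a depolymerase at centromeres, read -0.50 and -0.23 in the controls, and -0.74 and -0.83 after Xpo5 siRNA (chr4:116832775-116832834). It was lower in both experiments, by 0.24 and 0.61. Kif18b, which works with Kif2c on astral microtubules, read -0.12 and 0.17 in the controls, and -0.35 and -0.69 after Xpo5 siRNA, and its difference was far larger in experiment 2, at -0.85, than in experiment 1, at -0.23. Kif18a, which damps the movements of chromosomes at the metaphase plate, read -0.95 and -0.98 in the controls, and -1.26 and -1.44 after Xpo5 siRNA. For both of these motors, each Xpo5 siRNA array was below each control array. The cytokinesis motors Kif14 and Kif20b differed by -0.38 and -0.36, also without overlap. Kif22, a chromosome-bound motor that pushes chromosome arms away from the poles, was the exception. It read 4.05 and 4.11 in the controls, and 3.86 and 4.21 after Xpo5 siRNA, so that its groups overlapped and its difference of -0.046 ± 0.17 (SE) had the opposite sign in experiment 2, at 0.10. Without replicate 1 of Xpo5 siRNA its difference was 0.13.

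**Figure D3:**
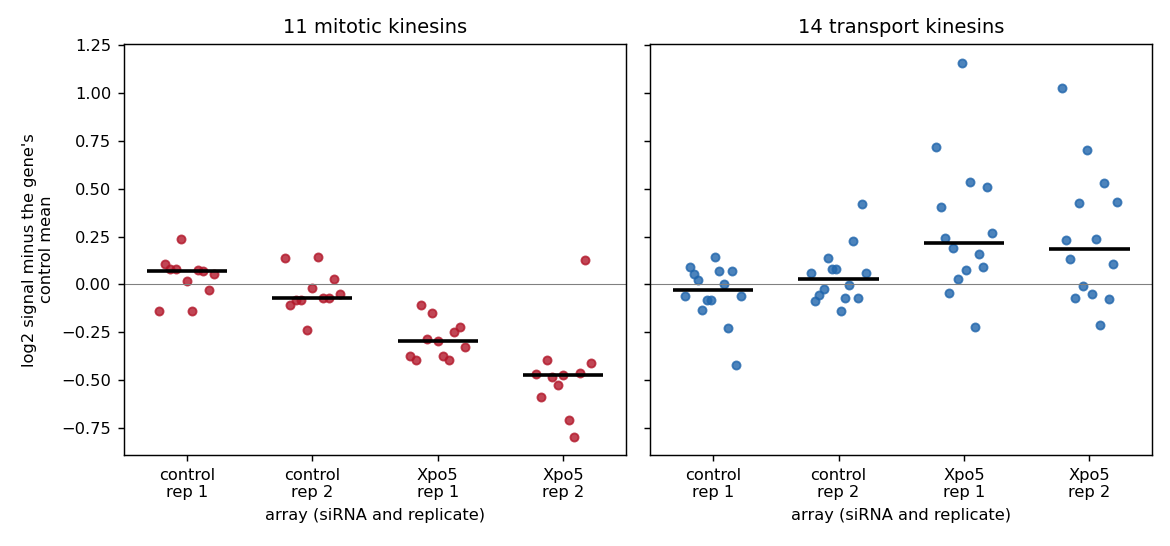
Log2 signal of each of 11 mitotic (left) and 14 transport (right) kinesin genes on each of the 4 arrays, minus the mean of the gene's 2 control arrays; points are genes and black lines are medians. The mitotic points of the Xpo5 siRNA arrays lie below 0 apart from Kif22 in replicate 2, and the transport medians of those arrays lie above 0.

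Among the transport kinesins, 8 of 14 were higher in both experiments, against 36.7% of all genes, and for 7 the groups did not overlap in that direction, against 24.7% of all genes. An unadjusted p under 0.05 with a higher signal was found in limma for 2 of 14 without the block and for 7 with it, against 8.88% and 16.2% of all genes. After adjustment over all genes 0 passed without the block and 1 with it, against 2.99% of all genes in that direction. Kif17, known from dendritic transport and cilia, was above background on none of the arrays and was not tested. The member that passed was Kif1a, the carrier of synaptic vesicle precursors in axons. Its signal was 3.03 and 3.15 in the controls, and 3.81 and 4.12 after Xpo5 siRNA (chr1:94912112-94912171), so that both Xpo5 siRNA arrays lay well above both controls. The difference was 0.87 ± 0.16 (SE, n = 2 arrays per group, adjusted p = 0.159 in limma and 0.0454 with the block), a 1.83-fold higher signal, and a second probe read 0.47. The difference was 0.78 in experiment 1 and 0.97 in experiment 2. Its adjusted p was between 0.0454 and 0.644 over the alternatives, and only the replicate block brought it under 0.05.

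The conventional kinesin heavy chains, which pair with light chains to carry many cargoes, differed from each other. Kif5a, which is mainly neuronal, read -2.65 and -2.49 in the controls, and -1.41 and -1.86 after Xpo5 siRNA (chr10:126662797-126662856). It was higher without overlap, by 0.93 ± 0.20 (SE, n = 2 arrays per group, adjusted p = 0.177 in limma and 0.0616 with the block), with 1.24 in experiment 1 and 0.62 in experiment 2. Kif5c, another neuronal heavy chain, read 0.76 and 0.62 in the controls, and 1.22 and 0.92 after Xpo5 siRNA, again without overlap and at 0.39 ± 0.16 (SE). Kif5b, the heavy chain found in nearly all cells, read 4.94 and 4.66 in the controls, and 4.87 and 4.75 after Xpo5 siRNA, so that its groups overlapped and its mean difference was 0.011. Kif21b, a motor that also limits microtubule growth and is abundant in neurons and lymphoid cells, read 1.15 and 1.28 in the controls, and 1.48 and 1.65 after Xpo5 siRNA, higher by 0.33 and 0.37 in the experiments. Its relative Kif21a, at 0.31 ± 0.32, was at 0.93 in one experiment and -0.31 in the other, and -0.11 without replicate 1 of control siRNA.

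Since Kif1a, Kif5a, Kif5c and Kif21b are known from neurons, the neuron markers are given beside them. Of 12 such markers, 9 were tested and 7 of these were higher, against 51.2% of all genes, with a median of 0.39. With the block, 2 of them rose, Nefl at 1.14 and Map2 at 0.65 (limma adjusted p = 0.0436 and 0.0488), against 2.99% of all genes, and neither passed without it (limma adjusted p = 0.145 and 0.168). Their summed signal was 9.05 and 8.55 times the 75th percentile in the controls, and 7.21 and 7.65 after Xpo5 siRNA, and Tubb3, which fibroblasts also express and which made up most of the sum, differed by -0.38. Of the defining markers, Snap25 and Elavl3 were above background on 0 of 4 arrays and Dcx on 1, while Rbfox3 and Syt1 were above it on all 4 with differences of opposite sign in the experiments, -0.18 and 0.83 for Rbfox3 and -0.11 and 0.98 for Syt1. The part of neural transcripts in the kinesin values was not tested.

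Kif1b was read by probes for each of its transcript forms, and these differed. The beta form, which carries synaptic vesicle precursors, had a brighter probe at chr4:148551200-148551259 that read 2.11 and 1.94 in the controls, and 2.43 and 2.26 after Xpo5 siRNA, and another at chr4:148552199-148552258. Their differences were 0.32 and 0.50, and the groups of both did not overlap. The alpha form, which carries mitochondria, had a probe at chr4:148611741-148611800 that read 0.067 and -0.24 in the controls, and -0.047 and -0.11 after Xpo5 siRNA, with overlap, and another at chr4:148610316-148610375. Their differences were 0.0080 and 0.0094. The difference between the forms was not tested. Kif1c, a close relative that carries vesicles to the cell edge, had 4 probes that all read higher, from 0.19 to 0.70, and its brightest gave 3.27 and 3.17 in the controls, and 3.46 and 3.35 after Xpo5 siRNA.

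The subunits of heterotrimeric kinesin, which builds cilia and moves endosomes, differed from each other. Kif3a read -0.26 and -0.31 in the controls, and -0.33 and -0.36 after Xpo5 siRNA, a difference of -0.059 ± 0.12 (SE) that was smaller than its error, although the groups did not overlap. Its partner Kif3b read -2.10 and -1.83 in the controls, and -1.77 and -1.53 after Xpo5 siRNA, with both Xpo5 siRNA arrays above both controls and a difference of 0.31 ± 0.17. Kif3c, the alternative partner of Kif3a, differed by 0.012 with overlap. Their shared accessory subunit Kifap3 differed by 0.25. The endosomal motors were likewise mixed. Kif13a, which moves recycling endosomes, was the lowest of the transport list at -0.22 ± 0.12, with -0.22 and -0.21 in the experiments and no overlap. Kif13b differed by 0.34 with overlap, and by -0.050 when its probes were averaged, and Kif16b, which moves early endosomes, by 0.0062. With the median of the array as the reference in place of the 75th percentile, all genes shifted by -0.11, and Kif3c, Kif5b and Kif16b turned to the lower side, which left 9 of 14 transport kinesins higher. The median of all genes was then -0.099, and the share of all genes that were higher was not computed for that reference. Relative to the median of all genes, the transport median was 0.30 with either reference, and the mitotic median -0.39.

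Of the 10 other kinesins, 6 were tested, with a median of -0.030. In limma 0 passed without or with the block, against 0.0215% and 4.37% of all genes. Without the block 0 had an unadjusted p under 0.05, against 5.8% of all genes with a lower and 8.88% with a higher signal. With 6 genes, 0 is near each of these shares. Kif2a, a depolymerase of spindle poles, cilia and growing axons, was the only one of these 6 without overlap, against 22.9% of all genes in that direction. It read 2.05 and 1.60 in the controls, and 1.58 and 1.36 after Xpo5 siRNA, a difference of -0.35 ± 0.20, while its other probes read -0.066 and 0.14. Kif24, which acts at centrioles to restrain cilia, read -0.99 and -1.30 in the controls, and -1.10 and -1.21 after Xpo5 siRNA, with a difference of -0.0085. Kif7, a regulator of Hedgehog signalling at the tip of the cilium, read -1.99 and -2.33 in the controls, and -1.86 and -2.19 after Xpo5 siRNA, and its difference of 0.13 was smaller than the gap between the experiments. Kif26b, a developmental kinesin without known transport activity, read 0.52 and 0.68 in the controls, and 0.35 and 0.56 after Xpo5 siRNA and differed by -0.15. Kif26a, its relative, read -4.97 and -3.68 in the controls, and -4.07 and -3.73 after Xpo5 siRNA, and its difference of 0.43 became, without replicate 1 of control siRNA, -0.22. Kif6 read -3.75 and -3.97 in the controls, and -3.87 and -3.95 after Xpo5 siRNA, with a difference of -0.052 and overlap. Kif2b, Kif9 and Kif12 were above background on none of the arrays and Kif27 on 1, so that these 4 were not tested.

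**Figure D4:**
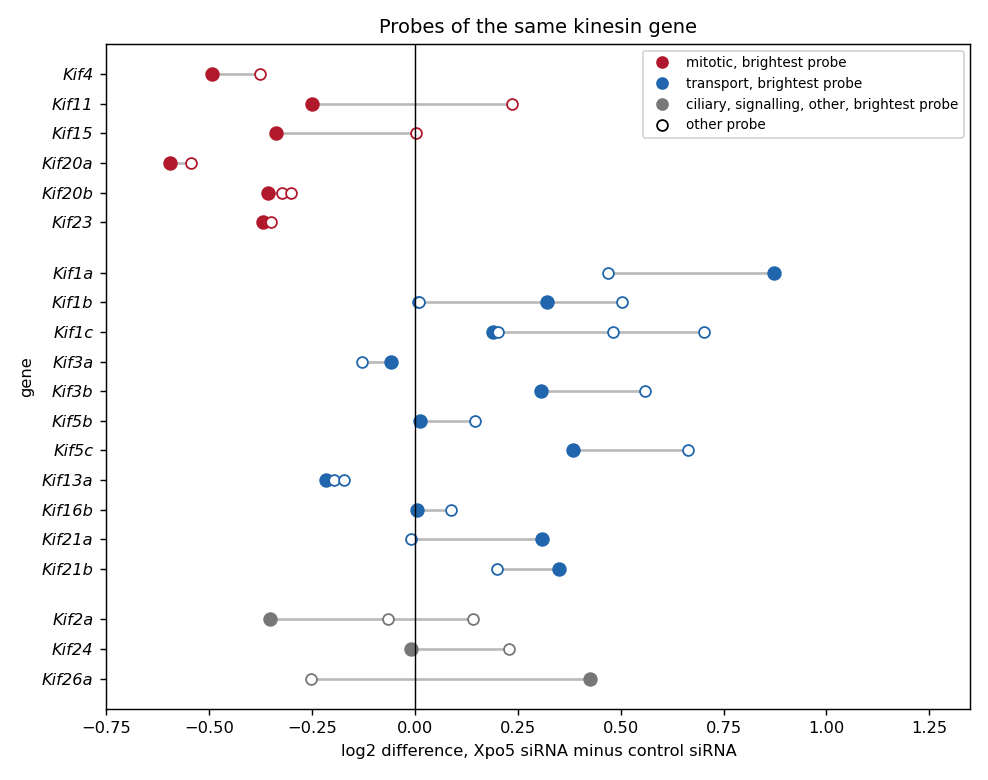
Difference in log2 signal for each probe that was well above background on all 4 arrays, for the 20 kinesin genes with more than 1 such probe; filled points are the brightest probe of a gene and open points its other probes. The probes of 14 of the 20 genes share a sign, among them 10 of 11 transport genes.

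Probes of the same gene allowed a further check. Of 20 kinesin genes with more than 1 probe above background on all arrays, 14 had probes of the same sign, 4 of 6 mitotic, 10 of 11 transport and 0 of 3 others. A share over all genes was not computed for these counts. The 2 probes of Kif20a read -0.60 and -0.54, those of Kif4 -0.49 and -0.38, those of Kif23 -0.37 and -0.35, and the 3 of Kif20b from -0.36 to -0.30. The probes of Kif20a overlap each other on the genome, and so do those of Kif4. The members of these 2 pairs are therefore not separate readings of their genes. The probes disagreed in sign for 6 genes. The other probe of Kif11 read 0.24, that of Kif15 0.0029, that of Kif21a -0.0096, that of Kif24 0.23 and that of Kif26a -0.25, and those of Kif2a are given above. That probe of Kif11 was far dimmer than its brightest, with a signal of -4.40 and -3.34 in the controls. A further probe of Kif11, above background on 3 arrays and so not counted here, read -0.87.

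The proteins that work with the mitotic kinesins had transcripts on the same side. Of 25 such genes, 23 were lower, against 48.8% of all genes, 19 of them in both experiments, against 35.2%, and the median was -0.33. None passed in limma with or without the block, and 9 had an unadjusted p under 0.05 without it, against 5.8% of all genes in that direction. Those with the smallest p were Ccnb1, the cyclin of mitotic entry, at -0.47 ± 0.14, Sgo1, which guards cohesion at centromeres, at -0.52 ± 0.16, Nusap1, a spindle protein whose second probe read 0.12, at -0.45 ± 0.14, and Tacc3, which steadies spindle microtubules, at -0.43 ± 0.14 (SE, limma adjusted p from 0.245 to 0.277). The exceptions were Ect2, the exchange factor that Kif23 and Racgap1 recruit, at 0.45, and Ckap5, at 0.00025. Ect2 and Ckap5 were chosen after their values were seen. Kinesins named otherwise went both ways, with a median of 0.076 over 5 genes that was -0.029 with the median of the array as the reference and 0.21 with probes averaged. Cenpe, the kinetochore motor, read -0.14 ± 0.13, and Kifc5b, whose signal a probe may share with its close relative Kifc1, -0.099 ± 0.22, while Kifc2 read 0.43 and Stard9 0.27, both higher in both experiments, and Kifc3 0.076.

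The partners of the transport kinesins had medians nearer to 0. Light chains and cargo adaptors had a median of 0.039 over 25 genes, with 16 higher, against 51.2% of all genes, and 9 lower. Their median was -0.067 with the median of the array as the reference. The members with the smallest p were Hap1 at 0.45, Mapk8ip1, a scaffold that links cargo to light chains, at 0.43, and the adaptors Fez1 at -0.30 and Trak2, which joins mitochondria to Kif5, at -0.29. The light chains Klc1, Klc2, Klc3 and Klc4 read -0.075, 0.066, 0.027 and 0.21. Dynein and dynactin, the motor of the opposite direction and its activator, had a median of 0.036 over 22 genes, and of -0.069 with the median of the array as the reference. The smallest p there belonged to Dctn4 at 0.65, with other probes from -0.15 to 0.45, Dync1i1 at 0.34, Dctn3 at 0.23 and Hook2 at 0.27. Genes of the cilium had a median of 0.14 over 24, with 17 higher, against 51.2% of all genes, and 16 of them higher in both experiments, against 36.7%. That median was 0.033 with the median of the array as the reference, and within the slides it was 0.20 and -0.044. Bbs2, a gene of the cilium list, rose with the block at 0.77 (limma adjusted p = 0.0474, and 0.341 without it), and Ift172, Ift57 and Ift88 read 0.36, 0.31 and 0.26. The tubulins, which form the tracks, had a median of -0.059 over 13, and Tubg1, which nucleates microtubules at centrosomes, read -0.59 ± 0.15, Tubb3 -0.38, Tubb2b 0.43 and Tubb6 -0.18. Apart from Bbs2 with the block, 0 members of these 4 lists passed in limma over all genes, where 1, 1, 1 and 3 had an unadjusted p under 0.05. Of all genes, 5.8% had one with a lower and 8.88% with a higher signal.

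**Figure D5:**
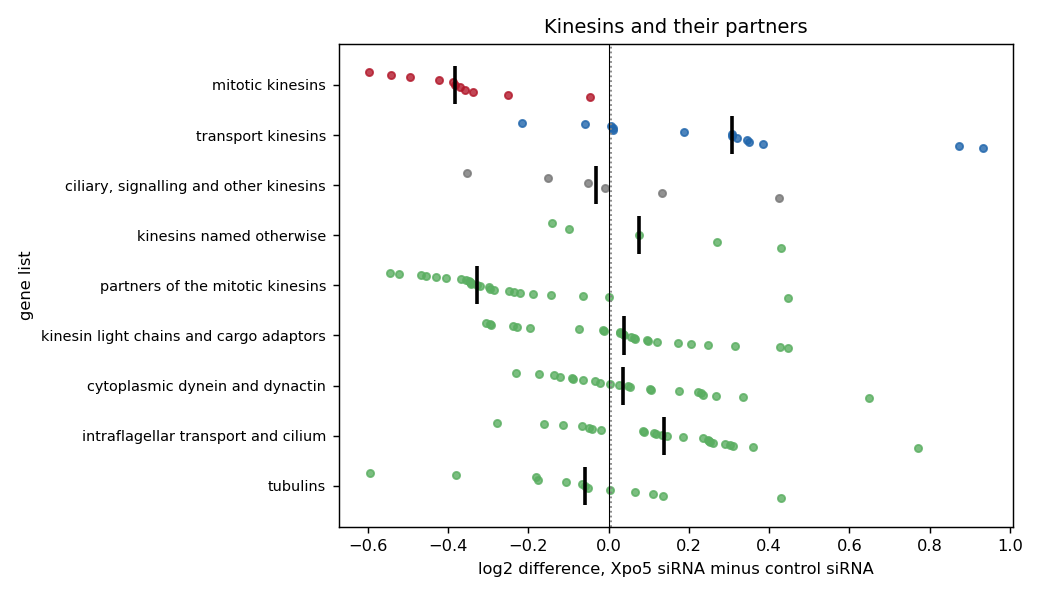
Difference in log2 signal, Xpo5 siRNA minus control siRNA, for each gene tested (points) of the 3 kinesin lists and of 6 lists of other kinesins and partners, with the list median as a black bar and the median of all genes as a dotted line. The medians of the mitotic kinesins (-0.38) and their partners (-0.33) lie below the line, and that of the transport kinesins (0.31) above it.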

How the data were processed

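Per the file headers, version 10.5.1.1 of Agilent's Feature Extraction software read the arrays of 2 control siRNA and 2 Xpo5 siRNA samples. The deposited processed signal is a spot intensity, background-subtracted and spatially detrended by the authors' scanner software on a linear scale, with probe positions on mm9. The deposited series table holds log2 values, which equal the log2 processed signal plus 1 constant per array within 0.001 for 99.7% to 99.8% of probes, with a median of 5.33 in each column.

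From each of 43379 non-control spots per array, 77 to 134 outliers were left out and 0 were saturated. Log2 signals, minus the 75th percentile of the array, were averaged over the spots of a probe. Probes were kept if both arrays of either group read them as well above background, and a gene was represented by its kept probe with the highest mean signal. Of 41174 probes, 26795 were named by accession, 5122 by symbol and 929 by synonym from the RefSeq table of GRCm38.p6, and 8328 had no match. Groups were compared over 13924 genes in limma 3.58.1 under R 4.3.3 (lmFit, eBayes, no trend, two-sided, Benjamini-Hochberg at 0.05), which was tested on simulated data. An exact permutation test of 2 arrays against 2 cannot go below p = 0.333 and was not used.

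The replicate number was taken to mark the experiment, which the labels leave unsaid. Same-numbered arrays deviated together, at r = 0.452 over 13918 genes (genes are no independent replicates). With the block, 1 residual degree of freedom remains in place of 2. Each of 2 slides, scanned once, carried a control array and an Xpo5 siRNA array that differed in replicate number.

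The members and lists were chosen with earlier results of these data known, so lists were not tested. Values on each array are given for the kinesins that the choice of genes names and for up to 6 per kinesin list with the smallest p, and up to 4 genes are named per partner list. The alternatives were normexp background correction (offset 50, without spots of uneven local background), quantile and median scaling, other filters, averaged probes, an intensity trend, replicate or slide blocks, the deposited table, single arrays left out and shorter lists.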

Additional observations from a re-analysis of the deposited data

How the results depend on the processing

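Among the values of single kinesins under other settings, 406 kept their direction and their side of the threshold, 1 passed it (Kif1a with the replicate block) and 27 turned sign, all of them for genes that did not pass. The intensity trend, the blocks and the other filters cannot turn the sign of these differences. Each tested kinesin keeps its probe there, and each block holds 1 array of each siRNA. No kinesin passed in the main fit, so that these counts do not measure how firm a difference is. The kinesins tested were above background on all arrays, and with 2 arrays per group the number of arrays limits the precision. Xpo5 read -3.23 with dim probes kept and -2.55 with its probes averaged, neither of them past the threshold, and -3.25 to -3.20 with single arrays left out. The number of genes that passed was 8 with median scaling and in the deposited table, 0 in limma with dim probes kept (where 1693 had an unadjusted p under 0.05), 1 with probes above background on all arrays or averaged, 608 with the replicate block and 0 to 26 with single arrays left out, the lowest when replicate 1 of Xpo5 siRNA and the highest when replicate 1 of control siRNA was missing.

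The mitotic median was -0.49 with median scaling and -0.49 in the deposited table. The transport median was 0.22 with normexp, 0.24 with quantile normalization, 0.20 with median scaling, 0.20 in the deposited table, 0.18 with probes averaged and 0.011 over Kif1b, Kif3a and Kif5b alone. The mitotic median less the transport median was -0.57 with normexp, -0.61 with quantile normalization, -0.56 with probes averaged and -0.41 over the members named in the choice of genes. With median scaling and in the deposited table the other kinesins stood at -0.14 and -0.14, kinesins named otherwise at -0.029 and -0.030 (0.21 with probes averaged), light chains and adaptors at -0.067 and -0.067, dynein and dynactin at -0.069 and -0.070, and the cilium at 0.033 and 0.032. These settings move the difference of every gene by 1 constant.

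With single arrays left out, the mitotic median went from -0.48 to -0.30, the transport median from 0.16 to 0.27, their gap from -0.70 to -0.48, the other kinesins from -0.11 to 0.016, light chains and adaptors from -0.018 to 0.068 and the cilium from 0.054 to 0.23. The mitotic median was then farthest from 0 without replicate 1 of Xpo5 siRNA and the transport median lowest, at 0.16, without replicate 1 of control siRNA. Under the same settings Kif3c went from -0.067 to 0.092, Kif5b from -0.13 to 0.15, Kif6 from -0.16 to 0.054, Kif7 from -0.039 to 0.31, Kif16b from -0.077 to 0.089, Kif21a from -0.11 to 0.73, Kif22 from -0.22 to 0.13, Kif24 from -0.16 to 0.15 and Kif26a from -0.22 to 1.07. Other sign changes were Kif3a at 0.089, Kif5b at -0.013 and Kif6 at 0.0066 with normexp, Kif3c at -0.0029 and Kif16b at -0.054 with quantile normalization, Kif13b at -0.050 and Kif24 at 0.11 with probes averaged, and Kif3c, Kif5b and Kif16b at -0.093, -0.094 and -0.099 with median scaling and -0.094, -0.094 and -0.10 in the deposited table. The cause was not tested in any of these. Apart from Kif1a, Bbs2, the macrophage, neuron, endothelial and muscle markers and the count over all genes, the replicate block changed no call of a gene or list given here.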

Other observations

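The kinesins also differed between the 2 arrays of each siRNA group, by amounts that can be set beside the differences between the siRNAs. Those arrays differed in slide as well as in replicate number. Replicate 1 was on slide 2 in the controls and on slide 1 with Xpo5 siRNA. Within a group, experiment and slide therefore cannot be told apart. Replicate 1 minus replicate 2 had a median over the 11 mitotic kinesins of 0.14 in the controls and 0.20 after Xpo5 siRNA. The medians were -0.059 and 0.073 for the 14 transport kinesins, against 0.083 and 0.047 over all genes. The widest gaps among the mitotic kinesins were those of Kif15, at 0.47 in the controls and 0.38 after Xpo5 siRNA, and of Kif20a with Xpo5 siRNA, at 0.40. Among the transport kinesins, the widest was that of Kif21a, at -0.84 in the controls and 0.40 after Xpo5 siRNA, followed by Kif5a, at -0.16 and 0.46, and Kif13b, at -0.45 and -0.37. These genes were chosen after their values were seen.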
